A study of Sus scrofa with 18 samples.

Results

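The miR-199 and miR-214 group of pig backfat was taken as every sequence that the deposited table of sequence variants assigns to ssc-miR-199a, ssc-miR-199b or ssc-miR-214. This gave 5 of the 240 mature miRNAs in the table (ssc-miR-199a-5p, ssc-miR-199a-3p, ssc-miR-199b-5p, ssc-miR-199b-3p and ssc-miR-214, written below without the prefix) and 910 of its 16636 distinct sequences, from 4 of its 210 hairpin precursors. Each sequence was counted once for each miRNA that lists it. Small RNA was sequenced from backfat of 18 Italian Large White pigs that belong to 2 classes of fat deposition, 9 high (5 castrated males and 4 females) and 9 low (4 castrated males and 5 females). The high pigs were 235 to 250 days old and the low pigs 233 to 249 days, all weighed 150 to 160 kg, and all shared a diet and housing. The labels give no treatment or genotype and do not say how the classes were drawn. They give each library its own number, sex and age but do not say in words that each is a separate pig, so p-values measure the spread between these samples.

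A miRNA is cut from a hairpin whose strands give a 5p and a 3p arm, and the seed, bases 2 to 8 of the mature strand, is the main part that pairs with target mRNAs. In human and mouse, a miR-199a gene and miR-214 lie together on the strand opposite an intron of DNM3 and are made from a long RNA that the mesenchymal transcription factor TWIST1 induces. Both are known as miRNAs of mesenchymal cells such as fibroblasts. In the RefSeq gene table of pig build Sscrofa11.1, MIR199A-1 lies on chromosome 9 within DNM3, with MIR214 inside the same gene and less than 10000 bases away. MIR199A-2 lies on chromosome 2 within DNM2 and MIR199B on chromosome 1 within DNM1, both of them dynamin genes like DNM3. The files used an earlier build, Sscrofa10.2, so no coordinates are given.

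The most abundant sequences of each member carry the findings on seeds, ends and shared reads, and are shown with the seed in capitals or, where named so, with the added last base in capitals. All are from the deposited table, 5′ to 3′, with T for U. The annotated 5p arms differ by the substitutions C10T and C17T from miR-199a-5p to miR-199b-5p, counted from the first base of the mature strand, and have the same seed.
miR-199a-5p, 23 bases: cCCAGTGTtcagactacctgttc
miR-199a-5p, 22 bases: cCCAGTGTtcagactacctgtt
miR-199a-5p with an added T: cccagtgttcagactacctgttcT
miR-199a-5p, 21 bases: cCCAGTGTtcagactacctgt
miR-199a-5p cut back and with an added T: cccagtgttcagactacctgttT
miR-199b-5p, 23 bases: cCCAGTGTttagactatctgttc
miR-199b-5p, 22 bases: cCCAGTGTttagactatctgtt
miR-199b-5p with an added T: cccagtgtttagactatctgttcT
miR-199b-5p, 21 bases: cCCAGTGTttagactatctgt
miR-199b-5p, 20 bases: cCCAGTGTttagactatctg

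The 3p arms of the miR-199a and miR-199b hairpins gave sequences that could not be told apart except by the annotation's ends, so they are shown together, followed by miR-214. Sequences that start 1 base upstream (first base T) have a seed shifted by 1 base against those with the first base A, and sequences that start 1 base downstream (first base C) are shifted the other way.
miR-199-3p, first base A, listed under both: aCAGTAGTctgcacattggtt
miR-199-3p, first base T, the annotated miR-199b-3p: tACAGTAGtctgcacattggtt
miR-199-3p, first base A, the annotated miR-199a-3p: aCAGTAGTctgcacattggtta
miR-199-3p, first base C, listed under both: cAGTAGTCtgcacattggtt
miR-199-3p, first base A, 20 bases: aCAGTAGTctgcacattggt
miR-214, first base A: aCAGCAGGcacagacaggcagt
miR-214, first base T: tACAGCAGgcacagacaggcagt
miR-214, first base A, 21 bases: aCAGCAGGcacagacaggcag
miR-214, first base T, 22 bases: tACAGCAGgcacagacaggcag
miR-214 with an added T: acagcaggcacagacaggcagtT
Apart from the members' own, none of the seeds in these lines was the seed of another of the 225 annotated mature sequences in the table (0 for each).

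The libraries held 11674414 to 28306762 reads of distinct sequences in high pigs and 9601510 to 34588252 in low pigs. One high library, the female high replicate 6, stood apart from the other libraries: its sum of the endothelial miR-126 arms was 11300 CPM (library counts scaled by TMM and expressed in CPM), against a median of 32836 in high pigs and 29224 in low pigs. Class differences over both sexes of miR-199a-3p, miR-214 and the miR-199-3p reads of both genes, and the correlations, are given with and without it. Contrasts within a sex include it. For miR-214 and the 3p members in females, ranges over fits that each left out a library are added. The library codes fall into 4 consecutive runs, of which AC485 to AC488 held 1 high and 3 low libraries. In fat there is no miRNA that marks fat cells alone, so the tissue label was checked only for other cell types. The skeletal muscle miRNAs were low, with a sum of 48.0 to 129 CPM in high libraries and 78.4 to 210 CPM in low libraries, and only 1 of the 5 epithelial names was in the table (miR-205).

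The members made up 1.36% ± 0.268 of the reads of a library (SD, n = 18), and the 3p arm outnumbered all the others. The miR-199-3p reads, counted once, were 0.997% ± 0.217 of a library, miR-199b-5p 0.187% ± 0.0442, miR-199a-5p 0.112% ± 0.0239 and miR-214 0.0604% ± 0.0191. Among 221 mature miRNAs that passed the count filter, miR-199b-3p ranked 18 by mean CPM, miR-199a-3p 21, miR-199b-5p 39, miR-199a-5p 50 and miR-214 65. The miR-199-3p and miR-214 levels thus lay on either side of the 5p arms, whose sum was below the 3p arm in every library: the log2 ratio of both 5p arms to the 3p reads was between -2.06 and -1.08 in high libraries and between -2.10 and -1.43 in low libraries. miR-199a-5p was also below miR-199b-5p in every library, with log2 ratios of -1.16 to -0.03 in high libraries and -0.91 to -0.22 in low libraries. Neither ratio differed between the classes past the threshold (exact permutation test over 48620 splits, two-sided, adjusted p = 0.209 for each over 27 measures).

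**Figure D1:**
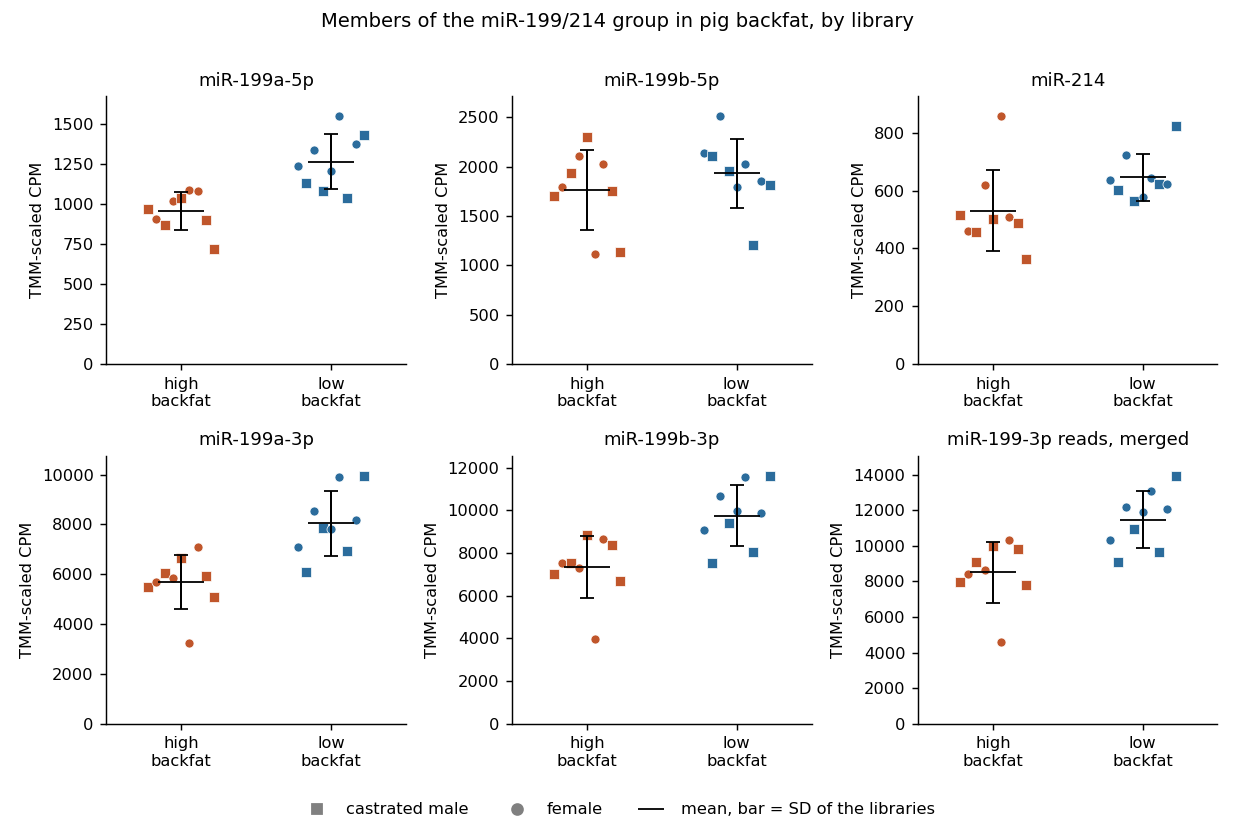
TMM-scaled CPM (vertical axes, from 0) of each member and of the merged miR-199-3p reads in 9 high and 9 low libraries, with squares for castrated males, circles for females, and the mean with its SD. The high values of miR-199a-5p run from 718 to 1086 and the low values from 1036 to 1547, and the lone low point of the high class in the 3p panels, and its highest in the miR-214 panel, is replicate 6.

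Most miR-199-3p reads were listed under both genes, and the listing of the rest followed the annotated ends and does not show their gene. Of 4002069 reads, 54.9% belonged to 481 sequences listed under both miR-199a-3p and miR-199b-3p. Another 31.2% were listed under miR-199b-3p alone, as 4 sequences of which 1, the annotated miR-199b-3p with first base T, held 99.8% of the reads. The last 13.9% were listed under miR-199a-3p alone, as 12 sequences of which the annotated miR-199a-3p held 96.6%. The split between the genes is thus a split by single sequences: the most abundant sequence, with 34.3% ± 1.26 of the reads (SD, n = 18), is 1 base shorter than the annotated miR-199a-3p and is listed under both. Shared reads made up 79.8% of the miR-199a-3p total and 63.8% of the miR-199b-3p total, so the values of the 3p members are not independent of each other. The 5p arms shared 6 sequences with 178 reads.

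The annotated miR-199a-3p sequence was listed with unequal counts under its precursors, 537642 reads for mir-199a-1 and 268777 for mir-199a-2. The ratio was between 1.95 and 2.04 in each of the 18 libraries. The larger value was used, and with the sum of both ssc-miR-199a-3p was past the threshold between the classes as well (edgeR, adjusted p = 0.0488).

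The 5p arms started at the annotated base in 99.8% ± 0.0841 of the reads of miR-199a-5p and 99.8% ± 0.0531 of those of miR-199b-5p (SD, n = 18). The 3p arm and miR-214 did not keep to a single start. Of the miR-199-3p reads, 59.3% ± 2.35 had the first base A, 35.2% ± 2.66 the first base T and 5.42% ± 0.551 the first base C. Of the miR-214 reads, 66.3% ± 1.33 started at A and 33.3% ± 1.33 at the T upstream of it. The T-start reads, with the seed ACAGTAG in miR-199-3p and ACAGCAG in miR-214, made up at least 31.7% and 30.8% of these reads in every library.

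The T-start share of the miR-199-3p reads was 33.5% to 40.5% in high libraries (median 37.2%) and 31.7% to 36.7% in low libraries (median 33.6%). The classes overlapped, and the means were 36.8% ± 2.46 in high pigs and 33.6% ± 1.83 in low pigs (SD, n = 9 each). The difference of 3.17 percentage points had p = 0.00868 by the exact permutation test and an adjusted p of 0.119 over 27 measures, which is not past the threshold. It had the same sign within all 4 code runs, at 2.13, 2.36, 2.77 and, in the run AC485 to AC488 with 1 high library, 6.44 percentage points. The C-start share was 5.10% ± 0.478 in high pigs and 5.74% ± 0.431 in low pigs (exact permutation test, p = 0.00880, adjusted p = 0.119). The T-start share of miR-214 was 33.4% ± 1.31 in high pigs and 33.1% ± 1.41 in low pigs, with an adjusted p of 0.809 by the same exact test.

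**Figure D2:**
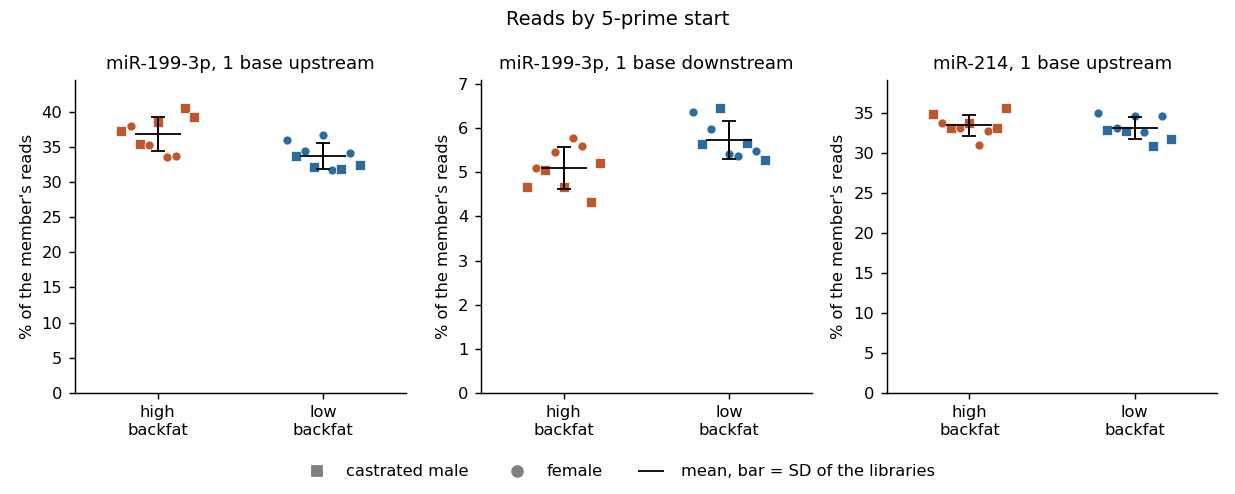
Share of reads (%, vertical axes from 0) that start 1 base upstream or downstream of the annotated miR-199a-3p start, and 1 base upstream of the miR-214 start, in 9 high and 9 low libraries, with squares for castrated males, circles for females, and mean with SD. The upstream share of miR-199-3p averaged 36.8% in high and 33.6% in low libraries, and the classes overlap in each panel.

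The 3′ ends of templated reads, those that match the hairpin throughout, had a single main position in each member. In miR-199a-5p, 53.0% ± 2.33 of templated reads ended at base 23 and 25.1% ± 1.88 at base 22 (SD, n = 18). In miR-199b-5p, 74.2% ± 2.48 ended at base 23 and 13.5% ± 1.07 at base 22. The miR-199a-5p ends were thus less concentrated on base 23 than those of miR-199b-5p. Of the templated miR-199-3p reads, 78.3% ± 1.80 ended at base 21 of the annotated miR-199a-3p and 17.1% ± 1.67 at its annotated last base, 22. The T-start reads ended on average at 20.97 ± 0.00316 on this scale and the A-start reads at 21.2 ± 0.0156. In miR-214, 74.2% ± 3.16 ended at base 22 and 18.9% ± 2.33 at base 21.

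Added T was most frequent on the 5p arms, and on miR-199a-5p above all. A terminal T that does not match the hairpin was on 24.3% ± 1.84 of miR-199a-5p reads, 8.03% ± 1.06 of miR-199b-5p reads, 4.53% ± 0.355 of miR-214 reads and 2.78% ± 0.379 of miR-199-3p reads (SD, n = 18). A terminal A that does not match was on 5.50% ± 0.726 of miR-199a-5p reads, 2.67% ± 0.325 of miR-199b-5p reads, 7.40% ± 0.607 of miR-214 reads and 3.48% ± 0.260 of miR-199-3p reads, so miR-214 had more added A than added T and miR-199b-5p had the smallest share of added A. Added T on miR-199a-5p was 25.2% ± 1.52 in high pigs and 23.4% ± 1.75 in low pigs (adjusted p = 0.169, exact permutation test, n = 9 each). On miR-199b-5p it was 8.60% ± 0.949 in high pigs and 7.46% ± 0.859 in low pigs (adjusted p = 0.145, same exact test). On the miR-199-3p reads it was 2.62% ± 0.194 in high pigs and 2.95% ± 0.451 in low pigs (adjusted p = 0.169, same exact test). None of the 23 shares and mean ends or the 4 ratios passed the threshold, and the lowest adjusted p was 0.119.

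**Figure D3:**
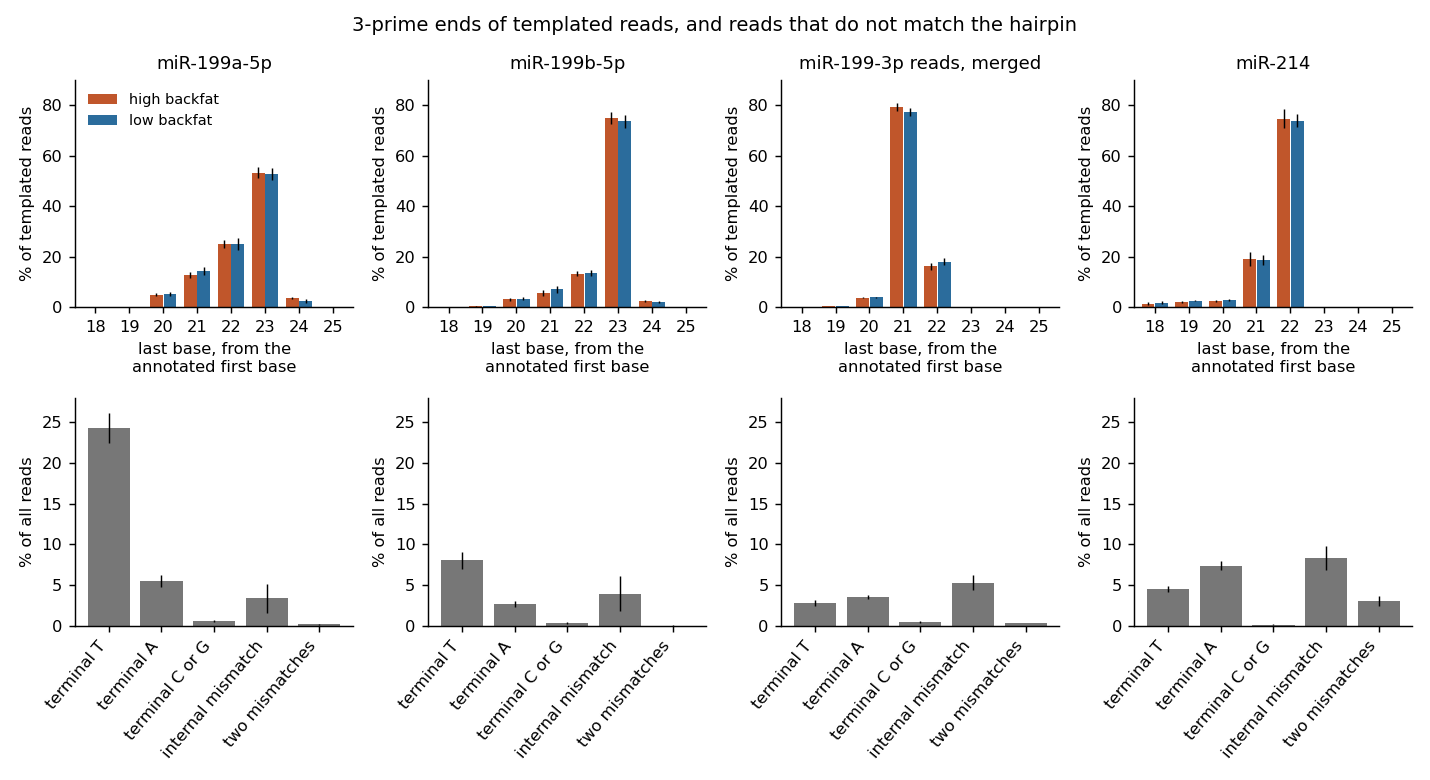
Upper row, share of templated reads (%) by their last base, counted from the annotated first base, as means with SD of 9 high and 9 low libraries. Lower row, share of all reads (%) whose mismatch to the hairpin is a terminal T, A, or C or G, an internal base, or 2 bases, as means with SD of 18 libraries; terminal T is 24.3% for miR-199a-5p, 8.03% for miR-199b-5p, 4.53% for miR-214 and 2.78% for the miR-199-3p reads.

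A mismatch within the seed varied widely between libraries of both classes. The substitution A6C, counted from the read's first base, was measured on the most abundant templated sequence of a start. Shares of A6C and A7C are the mismatched copy's reads over those of this sequence and its copy together, not over all reads of that start. In A-start miR-199-3p the A6C share was 0.0245% to 7.09% and exceeded 1% in 12 of 18 libraries. For A-start miR-214 the range was 0% to 7.82%, above 1% in 12 libraries, and the 12 were the same. In T-start reads the same miRNA base is number 7. The A7C share of miR-199-3p exceeded 1% in 6 libraries, all of them libraries in which A6C was at most 0.403%. These were high replicates 1, 3 and 9 and low replicates 7, 8 and 9, where A7C was 1.44% to 1.97%. Of these 6, high replicate 9 and low replicates 7, 8 and 9 are the whole code run AC485 to AC488. High replicates 1 and 3 are from other runs, and a link of the mismatch to code run was not tested. In the other 12 libraries A7C was at most 0.921%. In T-start miR-214, A7C exceeded 1% in 8 libraries: the same 6, at 4.33% to 6.55%, and high replicate 2 and low replicate 2, where it was 2.70% and 2.97% and A6C was above 1% as well. At the 1% cut, base 6 mismatches of A-start reads and base 7 mismatches of T-start reads were in separate libraries for miR-199-3p. For miR-214 both were above 1% in 2 libraries, high replicate 2 and low replicate 2. In these 2, A7C of miR-199-3p was 0.700% and 0.921%, beside A6C of 4.59% and 3.34%. In the rest of the 12 libraries outside the 6, A7C of miR-199-3p was at most 0.0457%. The mismatched reads are part of the counts of both members. Leaving out mismatched reads kept the calls reported here for miR-199a-5p (adjusted p = 0.0320) and miR-199a-3p (adjusted p = 0.0484), while with only reads of the exact annotated sequences miR-199a-3p was past the threshold (adjusted p = 0.0401) and miR-199a-5p was not (adjusted p = 0.0705).

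In the main fit of counts summed over all forms of each miRNA, 2 of the 5 members were called lower in pigs with high backfat. Both calls lay close to the threshold and were lost in several settings given below. The 3p arm tested as a single feature was not called (edgeR, adjusted p = 0.0745). In a fit of all 221 miRNAs with sex as a term, 8 miRNAs (3.62%) passed an adjusted p of 0.05 by edgeR's quasi-likelihood test with Benjamini-Hochberg adjustment, 5 of them lower in high pigs (2.26%), and miR-199a-5p and miR-199a-3p were among these 5. All 5 members had negative log2 fold changes. No member had all 9 high libraries below all 9 low libraries, which 1 of 221 miRNAs (0.452%) had. Fewer cells of a type and less of a miRNA in each cell cannot be told apart in whole tissue.

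miR-199a-5p, the arm that in human cells represses caveolin-1, was 718 to 1086 CPM in high libraries (median 971) and 1036 to 1547 CPM in low libraries (median 1238). The classes overlapped only slightly, with 7 of 9 high libraries below the lowest low library. The log2 fold change of the high class over the low class was -0.38 ± 0.09 (SE, adjusted p = 0.0486). Within the 4 runs of library codes the difference of mean log2 CPM was -0.34, -0.35, -0.42 and, with 1 high library in AC485 to AC488, -0.82.

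miR-199a-3p, which in human cells represses the MET receptor, was 3240.2 to 7096 CPM in high libraries (median 5849) and 6099 to 9949 CPM in low libraries (median 7859). Again 7 of 9 high libraries lay below the lowest low library, and the log2 fold change was -0.50 ± 0.13 (adjusted p = 0.0486). The run differences were -0.23, -0.46, -0.68 and -0.70. With code run as a covariate the miR-199a-3p call was lost (edgeR, log2 fold change -0.51 ± 0.15, adjusted p = 0.0748), while miR-199a-5p stayed past the threshold (adjusted p = 0.0484). Without high replicate 6, the lowest of the 18, the log2 fold change was -0.40 ± 0.09 (adjusted p = 0.0185).

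Both calls lay close to the threshold, with the same adjusted p for 7 of the 8 miRNAs called. miR-199a-5p was past it in 6 of 13 other settings and in 7 of 18 fits that each left out a library, and miR-199a-3p in 7 of 13 and 5 of 18. With age as a covariate the adjusted p was 0.0597 for both, and without the 4 libraries of AC485 to AC488 it was 0.230 for miR-199a-5p and 0.247 for miR-199a-3p. The call of miR-199a-5p remained without any one of high replicates 5, 6 and 7 and low replicates 1, 2, 3 and 7, and that of miR-199a-3p without any one of high replicates 6 and 7 and low replicates 1, 2 and 7. Leaving out any one of the other libraries ended it, with adjusted p up to 0.0996. All these log2 fold changes remained negative.

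miR-199b-3p was 3974 to 8829 CPM in high libraries (median 7536) and 7523 to 11619.5 CPM in low libraries (median 9869). Its log2 fold change was -0.41 ± 0.13 (SE, edgeR, adjusted p = 0.0715), short of the threshold, with 4 of 9 high libraries below the lowest low library. miR-199b-5p, which in mouse heart acts on the kinase Dyrk1a, had 1113 to 2299 CPM in high libraries (median 1790.1) and 1205 to 2509 CPM in low libraries (median 1950.4). The classes lay almost on top of each other, with a log2 fold change of -0.12 ± 0.15 (adjusted p = 0.654).

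The miR-199b-3p and miR-199a-3p values share most of their reads, so the 3p arm was also tested as a single feature. It was 4588 to 10329 CPM in high libraries and 9085 to 13941 CPM in low libraries, with a log2 fold change of -0.43 ± 0.13 and an adjusted p of 0.0745, among 220 features of which 3 (1.36%) were called. Leaving out high replicate 6 gave -0.36 ± 0.10 with an adjusted p of 0.0296, and the arm was also past the threshold without low replicate 1 or low replicate 2. When the reads were instead divided by which miRNAs list them, 8 of 251 sets (3.19%) were called, 5 of them lower in high pigs (1.99%). The reads listed under miR-199a-3p alone had 699 to 1467 CPM in high libraries (median 1118) and 1191 to 2302 CPM in low libraries (median 1631.5), with a log2 fold change of -0.57 ± 0.14 (adjusted p = 0.0419). The shared reads had 2668 to 5585 CPM in high libraries and 4935 to 7953 CPM in low libraries, with a log2 fold change of -0.48 ± 0.13 (adjusted p = 0.0497). The reads of miR-199b-3p alone, nearly all of them the T-start sequence, had 1461 to 3654 CPM in high libraries and 2621 to 4024 CPM in low libraries, with a log2 fold change of -0.29 ± 0.14 (adjusted p = 0.223). The shared call was past the threshold in 3 of 9 other settings and that of miR-199a-3p alone in 5 of 9. No test compared these 3 sets directly. The start shares given above bear only on sets that differ in their start, and were not past the threshold. The mean 3′ end of templated miR-199-3p reads was 21.114 ± 0.0129 in high pigs and 21.128 ± 0.0133 in low pigs (SD, n = 9 each). This difference was not past the threshold either (exact permutation test, adjusted p = 0.169).

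**Figure D4:**
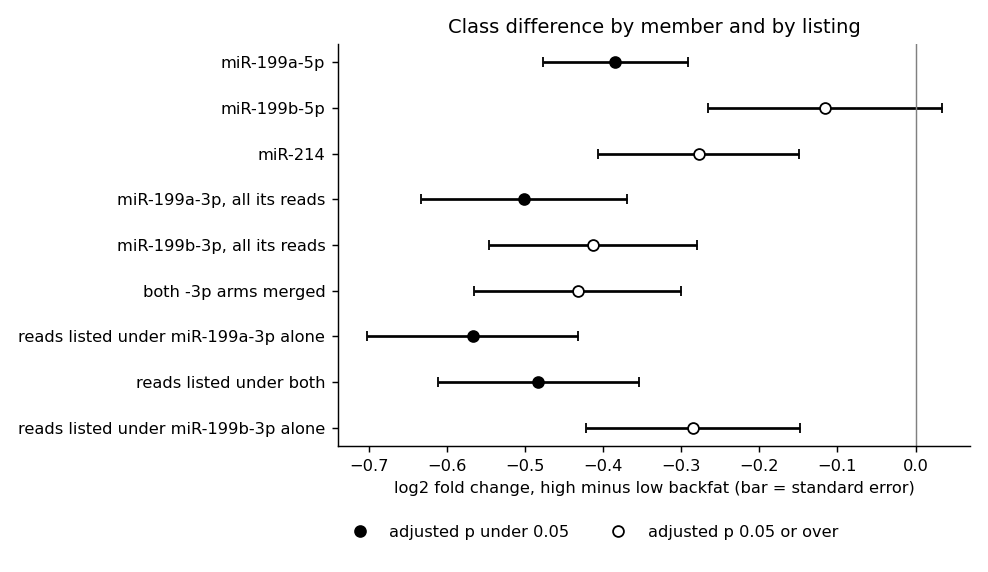
Log2 fold change of the high class over the low class (horizontal axis) with its standard error for each member, for the merged 3p arms and for the reads divided by the miRNAs that list them, with filled points for an adjusted p under 0.05. All 9 values are negative, from -0.57 for reads listed under miR-199a-3p alone to -0.12 for miR-199b-5p.

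miR-214, which in mouse and human is known to act on the chromatin enzyme EZH2, was 363 to 857 CPM in high libraries (median 503) and 563 to 824 CPM in low libraries (median 624). The highest of all 18 values was that of high replicate 6, and 7 of 9 high libraries lay below the lowest low library. The log2 fold change was -0.28 ± 0.13 with an adjusted p of 0.187. Without high replicate 6 it was -0.38 ± 0.10, past the threshold (edgeR, adjusted p = 0.0306), and this was the only one of the 18 libraries whose omission gave a call. Without the 4 libraries of AC485 to AC488 it was -0.15 ± 0.13 (adjusted p = 0.598).

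The skeletal muscle miRNAs had negative log2 fold changes, like the members, and none passed the threshold. Their summed level had a median of 65.2 CPM in high libraries and 140 CPM in low libraries. All 4 muscle arms that passed the count filter had negative log2 fold changes (median -1.24, 0 called by edgeR), beside 118 of all 221 miRNAs tested. Of the 4, miR-133a-3p was at -1.10 ± 0.37 (edgeR, adjusted p = 0.0804), and miR-1 and miR-133b were scarce, with class means of at most 4.44 CPM. In high replicate 6 the muscle sum was 102 CPM. The part of these miRNAs in the members' class differences was not tested. The endothelial miR-126 arms had log2 fold changes of 0.04 ± 0.14 and -0.04 ± 0.18, and the sums of the white blood cell miRNAs overlapped between the classes, at 1069 to 3364 CPM in high libraries and 1393 to 3017 CPM in low libraries.

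At the level of single sequences no form was called. Of 6140 distinct sequences tested, 0 (0%) passed the adjusted threshold by edgeR, 467 had an unadjusted p under 0.05, and DESeq2's Wald test called 76 higher and 58 lower. Of the members' sequences, 25 of 157 of miR-199a-5p, 30 of 125 of miR-199b-5p, 125 of 497 of the miR-199-3p reads and 52 of 137 of miR-214 passed the count filter. Negative log2 fold changes were found for 22 of the 25, 22 of the 30, 107 of the 125 and 45 of the 52, beside 48.9% of all sequences tested. Forms of 1 member share its transcript and are not replicates. An unadjusted p under 0.05 with a lower level in high pigs was found for 6, 1, 36 and 1 of them, beside 3.21% of all sequences, and for none with a higher level. DESeq2's Wald test called 24 miR-199-3p sequences, 1 of miR-199a-5p and 1 of miR-199b-5p, all lower in high pigs.

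Among the most abundant 3p forms, the annotated miR-199a-3p sequence had 816 to 1448 CPM in high libraries (median 1102) and 1181 to 2017 CPM in low libraries (median 1555). All 9 high libraries lay below the low median, and the log2 fold change was -0.52 ± 0.13 (edgeR, adjusted p = 0.292). The T-start sequence, the annotated miR-199b-3p, had 1787 to 4065 CPM in high libraries (median 3042) and 2407 to 4289 CPM in low libraries (median 3397), with a log2 fold change of -0.22 ± 0.15. The A-start sequence listed under both lay between them at -0.39 ± 0.13, the C-start sequence was at -0.50 ± 0.14, and the 20-base sequence at -0.45 ± 0.13. Adjusted p-values of these 5 were 0.292 to 0.909.

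Among the leading forms of the 5p arms none passed the threshold by edgeR, and differences between forms were not tested. In miR-199a-5p the 23-, 22- and 21-base sequences had log2 fold changes of -0.33 ± 0.12, -0.34 ± 0.13 and -0.51 ± 0.13, while the form with T added to the full length had -0.11 ± 0.15 and the one cut back before its added T -0.33 ± 0.14 (SE, edgeR, adjusted p 0.300 to 0.9997). In miR-199b-5p the 23-base sequence had -0.05 ± 0.20, the 22-base -0.09 ± 0.18, the 21-base -0.39 ± 0.13 and the 20-base -0.21 ± 0.14, and the form with an added T 0.15 ± 0.21 (edgeR, adjusted p 0.418 to 0.9997). The 5 leading forms of miR-214 lay between -0.30 and -0.09, with a lowest adjusted p of 0.918.

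Sex did not set the members apart. In the fit of castrated males over females with class as a term, edgeR called 0 of 221 miRNAs (0%), 17 had an unadjusted p under 0.05, and DESeq2's Wald test and limma called none either. miR-199a-5p had a log2 difference of castrated males over females of -0.19 ± 0.09 (adjusted p = 0.598) and miR-214 of -0.18 ± 0.13 (adjusted p = 0.628). The other members were at -0.11 ± 0.15 for miR-199b-5p, -0.01 ± 0.13 for miR-199a-3p and 0.00 ± 0.13 for miR-199b-3p.

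Within castrated males 9 of 221 miRNAs (4.07%) differed between the classes by edgeR, and no member was among them. miR-214 nevertheless separated the classes there, with 363 to 515 CPM in the 5 high libraries and 563 to 824 CPM in the 4 low libraries, and a log2 fold change of -0.49 ± 0.17 (adjusted p = 0.146). In females miR-214 had 461 to 857 CPM in the 4 high libraries and 579 to 721 CPM in the 5 low libraries, with a log2 fold change of -0.07 ± 0.17 (adjusted p = 0.921). High replicate 6 is 1 of these 4 females, at 857 CPM, and the others were at 461, 510 and 619 CPM. With a library left out the contrast in females was -0.29 to 0.054. The difference of the class contrast between castrated males and females was -0.42 ± 0.25 for miR-214, and its adjusted p was 0.587. With a library left out this difference was -0.54 to -0.16.

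The class contrast of miR-199a-5p was almost equal in the sexes, at -0.38 ± 0.13 in castrated males and -0.39 ± 0.14 in females. In castrated males the values were 718 to 1035 CPM in high pigs and 1036 to 1427 CPM in low pigs, and in females 904 to 1086 CPM in high pigs and 1204 to 1547 CPM in low pigs, so the classes did not overlap within either sex. Every high library was below every low library for 12 of 221 miRNAs (5.43%) in castrated males, miR-214 and miR-199a-5p among them, and for 6 (2.71%) in females, miR-199a-5p among them. miR-199a-3p was at -0.40 ± 0.19 in castrated males and -0.60 ± 0.19 in females, and miR-199b-3p at -0.25 ± 0.18 in castrated males and -0.57 ± 0.19 in females. High replicate 6 had the lowest female value of both. With a library left out the contrasts in females were -0.75 to -0.44 for miR-199a-3p and -0.71 to -0.41 for miR-199b-3p. In females edgeR called 0 of 221 (0%), with 20 at an unadjusted p under 0.05, and DESeq2's Wald test called 0. No member passed the threshold within a sex or in the test between the sexes, where edgeR called 0 miRNAs, 25 had an unadjusted p under 0.05 and DESeq2's Wald test called 3.

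How closely the members' levels ran together over the 18 libraries depended on the pair and on high replicate 6. Of 6 pairs compared on log2 CPM, miR-199a-5p and miR-214 were most alike, with Pearson's r = 0.770 and Spearman's rho = 0.746 (permutation test, adjusted p = 0.00102 and 0.00165). Without the 2 libraries farthest from the median of miR-199a-5p r was 0.722, 0.877 without high replicate 6, and 0.773 among the 9 high and 0.544 among the 9 low libraries. In the single run of library codes with 6 libraries, U134 to U139, r was 0.257 on TMM-scaled CPM and 0.824 on the deposited normalised counts.

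miR-199a-5p and the miR-199-3p reads had r = 0.609 and rho = 0.781 (permutation test, adjusted p = 0.0166 and 0.00132). The r was 0.547 without the 2 farthest libraries and 0.883 without high replicate 6, but -0.05 in high pigs and 0.794 in low pigs. In the run U134 to U139 it was 0.443 on TMM-scaled CPM and -0.484 on the deposited normalised counts. On those deposited counts r over the 18 libraries was 0.513, not past the threshold (permutation test, adjusted p = 0.0609). miR-199b-5p and the miR-199-3p reads had r = 0.612 (permutation test, adjusted p = 0.0166) but rho = 0.420 (permutation test, adjusted p = 0.170). For this pair r depended on the libraries included. It was 0.169 without the 2 farthest libraries, 0.372 without high replicate 6, 0.811 in high pigs and 0.196 in low pigs. In the run U134 to U139 it was 0.868 on TMM-scaled CPM and 0.422 on the deposited normalised counts. On those deposited counts r over the 18 libraries was 0.511, not past the threshold (permutation test, adjusted p = 0.0609). The other 3 pairs were not past the threshold. The miR-199-3p reads and miR-214 had r = 0.106 over all libraries and 0.743 without high replicate 6. For miR-199b-5p and miR-214 r was 0.075, and 0.425 without that library, and for the 5p arms it was 0.435, and 0.5004 without it. Differences between these coefficients were not tested.

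**Figure D5:**
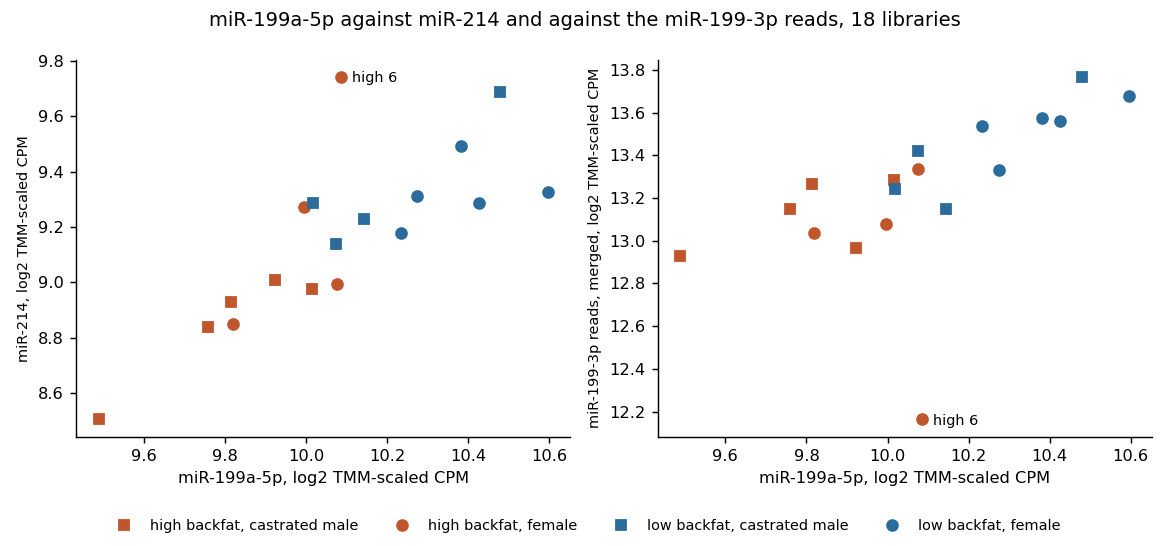
Log2 TMM-scaled CPM of miR-199a-5p (horizontal axes) against miR-214 and against the merged miR-199-3p reads in 18 libraries, coloured by class, with squares for castrated males and circles for females. The points run together at r = 0.770 in the first panel and 0.609 in the second, where high replicate 6 lies far below the others.

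Outside the group, the 5 miRNAs most like miR-199a-5p over the 18 libraries were let-7c (r = 0.839), miR-99a (0.748), miR-181c (0.674), miR-130a (0.653) and miR-31 (0.631). Of these, let-7c and miR-181c were also lower in high pigs, at -0.28 ± 0.07 and -0.39 ± 0.11 (edgeR, adjusted p = 0.0486 each). The 5 most like miR-214 were miR-133a-3p (0.647), miR-339 (0.624), miR-204 (0.614), miR-133b (0.611) and miR-149 (0.609), among them 2 of the skeletal muscle miRNAs. Of these 2, miR-133b was scarce, with means of 1.06 CPM in high pigs and 2.40 CPM in low pigs. All these coefficients describe libraries that share their depth and scaling and carry no test.

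The other miRNAs known from fibroblasts and matrix did not pass the threshold. Of 15 arms tested, 0 were called by edgeR, beside 8 of 221 in all, and DESeq2 called 22 of the 221. 13 had negative and 2 positive log2 fold changes, with a median of -0.24, beside 118 negative and 103 positive and a median of -0.03 over all 221. miR-195, of the cell cycle family of miR-16, was at -0.55 ± 0.17 (adjusted p = 0.0705), and miR-335 at -0.94 ± 0.30 (adjusted p = 0.0705). The collagen-repressing miR-29a, miR-29b and miR-29c were at -0.07 ± 0.12, -0.24 ± 0.16 and -0.22 ± 0.13. miR-21, the known marker of fibrosis, was at 0.44 ± 0.22 with 16748 ± 6705 CPM in high pigs and 11790 ± 1643 CPM in low pigs (SD, n = 9 each; adjusted p = 0.226 by edgeR). The smooth muscle miRNAs miR-143-3p, miR-143-5p, miR-145-5p and miR-145-3p were at -0.03 ± 0.13, 0.02 ± 0.17, -0.27 ± 0.15 and -0.31 ± 0.18. The remaining arms of miR-152, miR-192, miR-497 and miR-708 lay between -0.47 and -0.13.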

How the data were processed

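Small RNA of 18 pig backfat samples was read as 100-base single-end reads, 2 libraries per lane. The deposited counts are the authors' raw reads per sequence variant of a mature miRNA. The deposited normalised signal is those counts divided by 1 size factor per library, as dividing the tables shows. Bowtie 0.12.7, HTSeq, DESeq2 1.4.5 and build Sscrofa10.2 are named, with no role, in the submitters' processing notes; the sources used here do not give trimming or allowed mismatches. 2 further columns of per-sample values were not used.

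A sequence listed under several precursors was counted once per miRNA, at its largest listing. Counts were filtered with filterByExpr (minimum count 10), scaled by TMM and tested with edgeR 4.0.16's quasi-likelihood test, class and sex as terms, on all miRNAs, listing sets or sequences, adjusted by Benjamini-Hochberg, at a threshold of 0.05. CPM are TMM-scaled within each fit, so values of a member differ slightly between fits. Shares and ratios were tested with exact permutation tests (SciPy 1.17.1), adjusted over 27 measures, and correlations with 100000 permutations. Alternatives used DESeq2 1.42.0, and limma 3.58.1 on log2 of the deposited normalised signal plus 1. Totals per library were 9601510 to 34588252 reads; reads carry no molecular identifiers.

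The members, gene lists and tests were chosen with earlier results of these data known; a merged 3p feature, the sum of unequal listings and the classes of forms were added after seeing the table. Named in the text are all members, their 5 most abundant sequences, the 5 miRNAs most correlated with miR-199a-5p and with miR-214, and all measured miRNAs of the fibroblast and matrix list; marker lists of 7 other cell types were read alongside, and those not described in the report are given in the closing section. The edgeR script was tested on simulated data.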

Additional observations from a re-analysis of the deposited data

Results flagged for a closer look

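A library was set apart from the rest of its class in 9 of 66 groups examined, by a gap to the nearest other library that was large against the range of the class. Chance would set apart about 1 group in 20 if the groups were independent and normally spread. Many of these groups share reads and libraries, so an excess over chance was not tested.

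High replicate 6, a female, accounted for 5 of the 9. Its miR-199b-3p level was 3974 CPM, against 6698 CPM in the next lowest high library. Its merged miR-199-3p level was 4588 CPM, against 7787 CPM in the next. Its log2 ratio of miR-199a-5p to miR-199b-5p was -0.035, against -0.67 in the next library, and its log2 ratio of miR-199a-5p to the miR-199-3p reads was -2.10, against -3.07. Its log2 ratio of miR-214 to miR-199a-5p was -0.34, against -0.72.

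In low replicate 6, reads with an internal mismatch were 7.82% of miR-199a-5p and 9.12% of miR-199b-5p, against 4.32% and 4.70% in the next library of the low class. Templated reads of miR-199b-5p in high replicate 9 ended on average at base 22.57, against 22.66 in the next high library. In low replicate 7 a terminal T that does not match the hairpin was on 4.06% of the miR-199-3p reads, against 3.07% in the next low library.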

How the results depend on the processing

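No paired analysis was possible because the labels give no replicate numbers that pair a high with a low library; the 4 code runs, which each hold both classes, were instead used as a covariate. All log2 fold changes of the 5 members between the classes kept their sign under every alternative, and calls near the threshold came and went with the number of miRNAs called; the cause was not tested. Over both sexes, edgeR called 8 of the summed miRNAs, against 1 with DESeq2 size factors, 1 with no filter, 22 by DESeq2's Wald test, and 0 with limma, with age as a covariate or without the 4 libraries of AC485 to AC488. In those 3 fits 59, 42 and 31 miRNAs had an unadjusted p under 0.05. With the 3p arm merged it called 3, against 1 with DESeq2 size factors, 1 with no filter, 7 at a mean of at least 10 CPM, 21 by DESeq2, 7 with no sex term, 8 with code run as a covariate, and 0 with limma, age or without those 4 libraries. Of the listing sets it called 8, against 3 with DESeq2 size factors, 4 with no filter, 21 by DESeq2, and 0 with limma, age, code run or without those 4. Of single sequences it called 0%, against 0.365% at a mean of at least 10 CPM and 2.18% by DESeq2. In castrated males it called 9, against 2 with limma, 5 with age and 0 without those 4. Between the sexes DESeq2 called 3. Of the 6 correlations, 3 passed, and 1 with deposited normalised counts. With a library left out, the counts were 0 to 13 for summed miRNAs and for listing sets, 0 to 12 with the 3p arm merged, 0% to 0.0307% for sequences, 2 to 14 in castrated males and 0 to 3 between the sexes.

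Of 1621 other recomputed values, 1461 kept their direction and side of the threshold, 97 lost a call, 14 gained one and 49 changed sign. The miR-199b-5p contrast in castrated males was 0.017 with DESeq2 size factors and by DESeq2, 0.040 with no filter, and -0.15 to 0.15 with a library left out. In females the miR-214 contrast was 0.11 with limma, whose median over all miRNAs there was 0.19, and -0.29 to 0.054 with a library left out. The difference between the sexes of miR-199a-5p was -0.061 at a mean of at least 10 CPM, -0.23 with limma (the median of all miRNAs), -0.030 with code run, and -0.052 to 0.12 with a library left out. Castrated males over females, miR-199a-3p was 0.0018 with no filter, 0.066 with age, 0.00267 with code run, 0.0041 without the 4 libraries, and -0.083 to 0.059 with a library left out. There miR-199b-3p was -0.027 with limma, -0.067 with no class term and -0.083 to 0.065 with a library left out, and miR-199b-5p was 0.073 without the 4. Without them the miR-199b-5p form with an added T was at -0.021, and the T-start share of miR-214 differed by -0.33 percentage points. With a library left out, that form was at -0.018 to 0.19 and the 23-base form at -0.18 to 0.013.

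The scarcest member, miR-214, had 3433 or more reads in each library, while most of the 910 sequences were too scarce to be tested one by one. Intervals for counting error were not computed, since reads carry no molecular identifiers. The classes differ in sex by 1 animal, and the 4 code runs do not hold them evenly.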

Other observations

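The marker lists not described above had no arm past the threshold by edgeR (0 called in each). The red blood cell miRNAs summed to 3082 to 6649 CPM in high libraries and 2603 to 10337 CPM in low libraries, with 1 of 3 log2 fold changes positive. The neuron list summed to 93.6 to 142 CPM in high libraries and 67.7 to 130 CPM in low libraries, also with 1 of 3 positive. The liver miRNA miR-122 was at 0 to 8.65 CPM in high libraries and 0 to 42.8 CPM in low libraries, and the epithelial miR-205 at 1.23 to 15.9 CPM in high libraries and 1.95 to 49.2 CPM in low libraries. The part of these lists in the members' values was not tested.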
